A study of Mus musculus with 2 samples.

Results

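The chaperones and protein folding factors of the mouse embryo were represented by 61 of the 8735 gene spots of the array. A spot was taken as a member when its gene name began with 1 of 17 terms, among them heat shock, DnaJ, crystallin, prefoldin, calreticulin, FK506 binding and tumor rejection antigen. The 61 spots carried 59 names, because the mTOR kinase (named as a protein bound by the FK506 binding protein 12) and osmotic stress protein 94 had 2 clones each. Of the 17 terms, 14 had a spot. The other 3, protein disulfide, calnexin and hypoxia up-regulated, had none, and 0 spots were named as a heat shock factor. A transcript tag named as weakly similar to a heat shock factor binding protein was not among the members. Some names that fit the terms belong to proteins that do not fold others: the mTOR kinase, the DNA-binding protein Hivep1 (named crystallin alpha binding protein 1), the enzymes crystallin zeta and crystallin mu, the cyclophilin C-associated protein and Tcp10b. They were kept, as the rule took them.

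The arrays set morulae that had received LIF-siRNA against morulae that had received scrambled siRNA. Small interfering RNA (siRNA) lowers the transcript that it matches, here that of leukemia inhibitory factor (LIF), and the scrambled sequence served as the control. The embryos were of the strain B6CBF1, labelled as whole embryos with an age of 4 d. They were injected at the two-pronucleus stage with 1.0 fmol siRNA by the sample labels, while the methods of the study give another dose, and were cultured to the morula stage. Each array compared RNA of LIF-siRNA-treated embryos, in Cy5, with RNA of scrambled-siRNA-treated embryos, in Cy3. There were 2 arrays with the same dye order, so a dye effect and the treatment cannot be told apart. The sources used here leave unstated if each array had embryos of its own, so a p-value measures the spread between these 2 arrays, which may be technical. A description in the labels speaks of untreated embryonic stem cells, unlike the titles, and the arrays were assigned by titles and dyes. LIF itself had 0 spots by name, which leaves the knockdown unchecked on these arrays.

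Median signal over local background was between 4.83 and 6.60 over the 4 channels, and no gene spot was saturated. Of the 61 members, 52 had a processed signal above the 95th percentile of the 664 blank spots in all 4 channels. The other 9 were Fkbp7, the cyclophilin C-associated protein, Hsp25, Tcp10b and the crystallins alpha 1, beta A1, beta A4, gamma A and gamma C. Of the preimplantation embryo markers, 6 of 12 were found by name, and all 6 spots (Pou5f1, Sox2, Cdh1, Krt8, Utf1 and Eomes) were well above background in every channel. Their summed signal was from 20325 to 22858 after LIF-siRNA and from 27446 to 33401 after scrambled siRNA. Sox2, with a mean log2 ratio of -2.35, and Krt8, with -1.95, met the criteria of the study for down-regulation, given further on. So did 5.42% of all probes past the signal threshold. The means were -0.95 for Utf1, -0.11 for Pou5f1, 0.14 for Eomes and 0.47 for Cdh1. Of the oviduct or cumulus cell markers, 2 of 5 were found, and of their 3 spots, 2 were above background, with a summed signal of the list from 949 to 1007 after LIF-siRNA and from 410 to 454 after scrambled siRNA. The 5 hemoglobin spots, of which 4 were above background, had a summed signal from 1762 to 1899 after LIF-siRNA and from 3745 to 4247 after scrambled siRNA. Most of this sum was the spot of hemoglobin X, with 1610 and 1421 after LIF-siRNA and 3979 and 3439 after scrambled siRNA. That spot also met the criteria for down-regulation, with a mean log2 ratio of -1.29. The mean log2 ratios of the other 4 were -0.61, -0.19, 0.10 and 0.76. The part of these 3 lists in the results was not tested. As the RNA came from whole embryos, fewer cells of a type and less RNA per cell cannot be told apart.

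Chaperones bind proteins that are not yet folded, or that have lost their fold, and keep them from aggregating. In the cytosol, Hsp70 works with DnaJ (Hsp40) partners and hands clients to Hsp90, a step that Stip1 (Hop) bridges, while the chaperonin ring folds actin and tubulin. In the endoplasmic reticulum, BiP, gp96 and calreticulin fold secreted and membrane proteins, and transcription of their genes is raised when unfolded protein builds up there. The mouse embryo is known for making Hsp70 as one of the first products of its own genome.

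Calreticulin, gp96 and BiP, chaperones of the endoplasmic reticulum, had log2 ratios below 0 on both arrays, as did 36.8% of all probes, while Dnajb9, a BiP partner there, had ratios above 0. Of the 12 cytosolic Hsp90, Hsp70 and Hsp110 spots 7 were below 0 on both arrays and 5 above. The study called a gene down-regulated when the ratio of Cy5 to Cy3 was under 0.5, and up-regulated when it was over 2, with a signal above 1000 in either channel. On the geometric mean of both arrays, 8 of the 38 members past that signal threshold met the criteria for down-regulation, a share of 21.1%, where 5.42% of the 3527 probes past the threshold did. The 8 were calreticulin, Fkbp4, Fkbp8, Hsp110, Stip1, gp96, Dnajb6 and Hsp90-beta. Fkbp8 passed the signal threshold only through Cy3. The criteria for up-regulation were met by 1 member, Dnajb9, a share of 2.63% against 5.33%. The study's own list of up-regulated genes names no DnaJ protein. The criteria use no test. Where each array had to pass on its own, 7 of 37 members were down-regulated, all of the 8 but Dnajb6, and 0 were up-regulated, beside 3.77% and 2.45% of 3344 probes.

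Limma's test took the 8079 probes that were well above background on each array in 1 channel or both. Of the 58 members tested, 0 reached a Benjamini-Hochberg adjusted p under 0.05, as did 0% of all probes. Hsp25, crystallin alpha 1 and crystallin gamma A were too dim to be tested. An unadjusted p under 0.05 was found for 23 of the 58 members and for 30.7% of all probes. The smallest adjusted p among the members was 0.058, that of calreticulin. It was also the smallest of all probes, but other probes shared it, among them Krt8 and a thioredoxin peroxidase pseudogene. It does not rank calreticulin first. The count depended on the set of probes and the model of the spread. When the fit took only the probes past the signal threshold, 12 members were lower and 1 was higher at an adjusted p under 0.05 out of 38, with 10.0% and 8.68% of all probes in that fit. The 12 were the 8 members above with BiP, Hspa4, Hsp90-alpha and Dnaja1, and the 1 was cyclophilin C (Ppic). With a limma variance that follows the intensity, 16 members were lower and 6 higher out of 58, with 6.81% and 7.22% of all probes. That fit added Hsp105, Cct3, Cct5 and Cct7 to the lower ones, and its higher ones were Ppic, Dnajb9, Tbca, Hspa2, Fkbp7 and crystallin beta A1. Fkbp7 entered the fit only through Cy5, as its Cy3 signal was not well above background on either array. Its call is thus no evidence of a change. Of the other settings, median centring called 18 members (17.7% of all probes), normexp background correction with loess 1 (1.96%), and a fit of probes well above background in both channels 2 (3.09%).

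**Figure D1:**
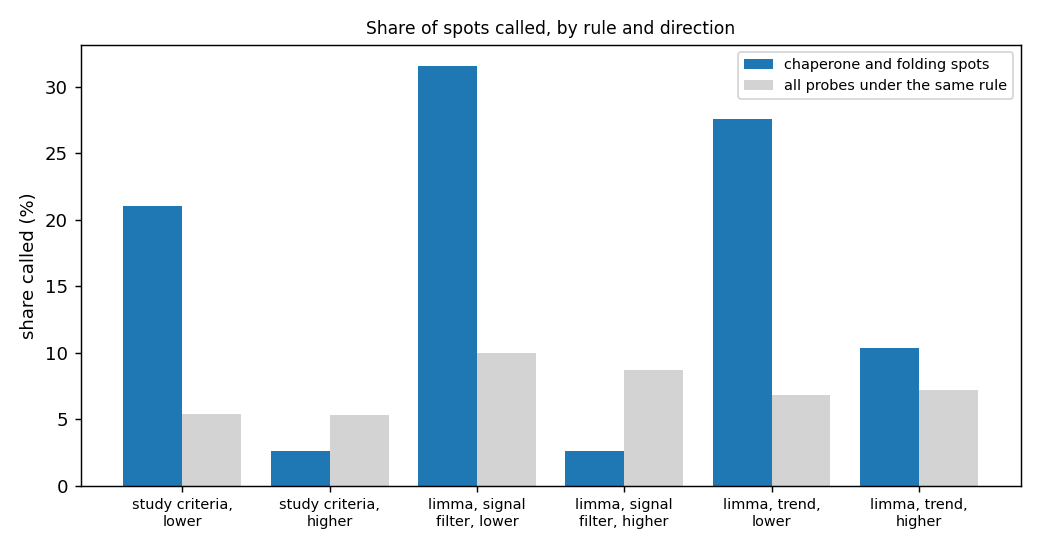
Share of chaperone and folding spots (blue) and of all probes under the same rule (grey) that were called lower or higher after LIF-siRNA, in percent. The rules are the criteria of the study (38 members), limma on probes past the signal threshold (38 members) and limma with an intensity trend (58 members). Lower calls made up 21.1%, 31.6% and 27.6% of the members against 5.42%, 10.0% and 6.81% of all probes.

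Over the 58 members tested, the median log2 ratio was -0.18, beside -0.004 for all probes tested. It was -0.30 without array 1 and -0.07 without array 2. For the 38 members past the signal threshold it was -0.32, beside 0.002. The log2 ratio was below 0 on both arrays for 25 members, above 0 on both for 22 and of mixed sign for 11. Of all probes, 36.8% were below 0 on both arrays and 36.7% above. Both Cy5 signals were lower than both Cy3 signals for 23 of the 58 members (31.2% of all probes) and higher for 18 (31.4%). By count of signs, the 58 members tested lay near the background. Of the 38 members past the signal threshold, 22 were below 0 on both arrays, 10 above and 6 of mixed sign. The shares of all probes past that threshold with these signs were not computed. Of the 16 members with a signal over 10000, 8 had a mean log2 ratio below -0.5 and the median was -0.55. Of the 352 probes of that kind, 20.5% were below -0.5 and the median was 0.03. The limits of 10000 and -0.5 were not among the planned comparisons. The members below -0.5 include the clones named Hsp110 and Hspa4, which may report the same gene.

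**Figure D2:**
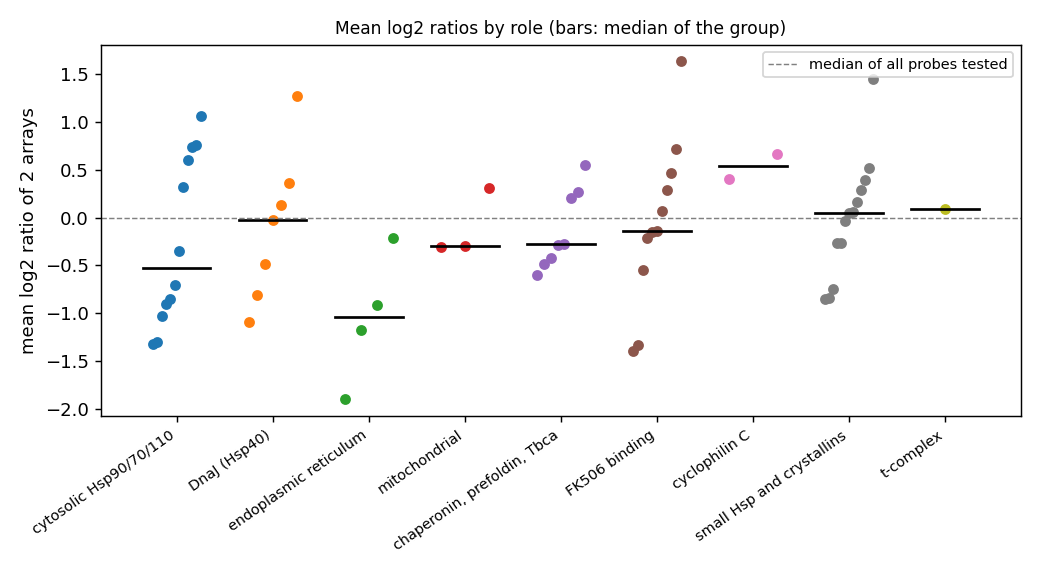
Mean log2 ratio of LIF-siRNA (Cy5) over scrambled siRNA (Cy3) on 2 arrays for each of the 61 spots (points), grouped by role, with the median of each group as a bar and the median of all probes tested as a dashed line. The group medians ran from -1.04 for calreticulin, gp96, BiP and Grp58 (labelled endoplasmic reticulum) to 0.54 for cyclophilin C and its associated protein.

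Calreticulin, gp96, BiP and Grp58 were grouped by the endoplasmic reticulum, where they fold proteins, and the median log2 ratio of these 4 was -1.04. Other members known from that compartment were grouped with their families. Of these Dnajb9, Dnajc1 and Fkbp9 had ratios above 0 on both arrays, Fkbp2 had ratios below 0, and Dnajc3 was of mixed sign. Low ratios were thus not shared across the compartment. Fkbp7 was above 0 too, but its Cy3 signal was not well above background on either array. Calreticulin, the calcium-binding lectin that folds glycoproteins, had the lowest ratio of all members. Its processed signal after scrambled siRNA was 5912 on array 1 and 6684 on array 2, and after LIF-siRNA it was 1483 and 1936. The channels did not overlap. Its log2 ratios were -2.00 and -1.79, a mean of -1.89 ± 0.15 (SD, n = 2 arrays), or 3.71-fold lower, with a Benjamini-Hochberg adjusted p of 0.058 from limma over all probes and 0.018 among probes past the signal threshold.

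The glucose-regulated chaperones are known to share an element in their promoters, the endoplasmic reticulum stress element, and the windows of the members that hold it are shown because 3 of these 4 genes, Calr, Hsp90b1 and Hspa5, had log2 ratios below 0 on both arrays. The sequences are the 250 bases before the RefSeq transcription start (build GRCm38.p6), 5′ to 3′ on the strand of the gene, with the letters of the element (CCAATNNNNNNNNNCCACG or its reverse complement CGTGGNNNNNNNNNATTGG) in capitals. Calr lies at chr8:84846932-84847181 on the minus strand, Hsp90b1 (gp96) at chr10:86705445-86705694 on the minus strand, Hspa5 (BiP) at chr2:34771840-34772089 on the plus strand and Dnajc3 at chr14:118937682-118937931 on the plus strand.
Calr: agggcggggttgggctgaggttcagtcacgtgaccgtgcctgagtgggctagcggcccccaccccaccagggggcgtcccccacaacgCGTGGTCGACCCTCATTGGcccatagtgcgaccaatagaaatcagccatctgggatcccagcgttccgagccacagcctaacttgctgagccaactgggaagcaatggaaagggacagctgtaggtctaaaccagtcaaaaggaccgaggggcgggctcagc
Hsp90b1: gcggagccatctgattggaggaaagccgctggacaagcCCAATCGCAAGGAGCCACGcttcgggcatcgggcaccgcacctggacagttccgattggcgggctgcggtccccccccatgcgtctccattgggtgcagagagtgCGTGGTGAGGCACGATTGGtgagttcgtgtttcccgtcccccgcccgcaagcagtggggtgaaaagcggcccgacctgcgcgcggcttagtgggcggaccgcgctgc
Hspa5: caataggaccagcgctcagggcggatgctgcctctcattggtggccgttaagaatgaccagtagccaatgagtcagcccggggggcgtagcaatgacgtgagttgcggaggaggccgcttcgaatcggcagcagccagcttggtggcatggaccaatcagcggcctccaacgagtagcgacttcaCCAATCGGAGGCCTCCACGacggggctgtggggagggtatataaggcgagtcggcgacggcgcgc
Dnajc3: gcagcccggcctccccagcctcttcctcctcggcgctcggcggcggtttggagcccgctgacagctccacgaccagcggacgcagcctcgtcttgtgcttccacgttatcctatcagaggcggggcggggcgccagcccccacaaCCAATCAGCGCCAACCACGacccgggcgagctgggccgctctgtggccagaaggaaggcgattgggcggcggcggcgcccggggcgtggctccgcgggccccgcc
Windows of 300 bases, from 250 before to 50 after the start, were found for 51 of the 58 gene symbols of the members. The letters of the element were in the windows of these 4 genes and of no other member, and in those of 0.137% of all 27025 genes (0.119% of 32851 windows). Hsp90b1 held 2 copies. The match is a description of letters, not of a bound site. The log2 ratios of the 4 genes were not alike, since Dnajc3, a DnaJ cochaperone of the same compartment, had -0.16 and 0.10.

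Gp96, the Hsp90 of the endoplasmic reticulum, had a signal of 18627 and 21258 after scrambled siRNA and of 7467 and 10489 after LIF-siRNA. Its log2 ratio was -1.32 and -1.02, a mean of -1.17 ± 0.21, and the channels did not overlap. BiP, the Hsp70 of that compartment, was just short of the ratio threshold. Its signal was 24204 and 23189 after scrambled siRNA and 11101 and 14209 after LIF-siRNA, a log2 ratio of -1.12 and -0.71 and a mean of -0.92 ± 0.30. Grp58, a disulfide isomerase that works with calreticulin, did not share this pattern. It had -0.48 on array 1 and 0.06 on the other, and the channels overlapped. In limma's test over all probes the Benjamini-Hochberg adjusted p was 0.0678 for gp96, 0.092 for BiP and 0.587 for Grp58. In the fit of probes past the signal threshold these were 0.0223, 0.037 and 0.466.

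**Figure D3:**
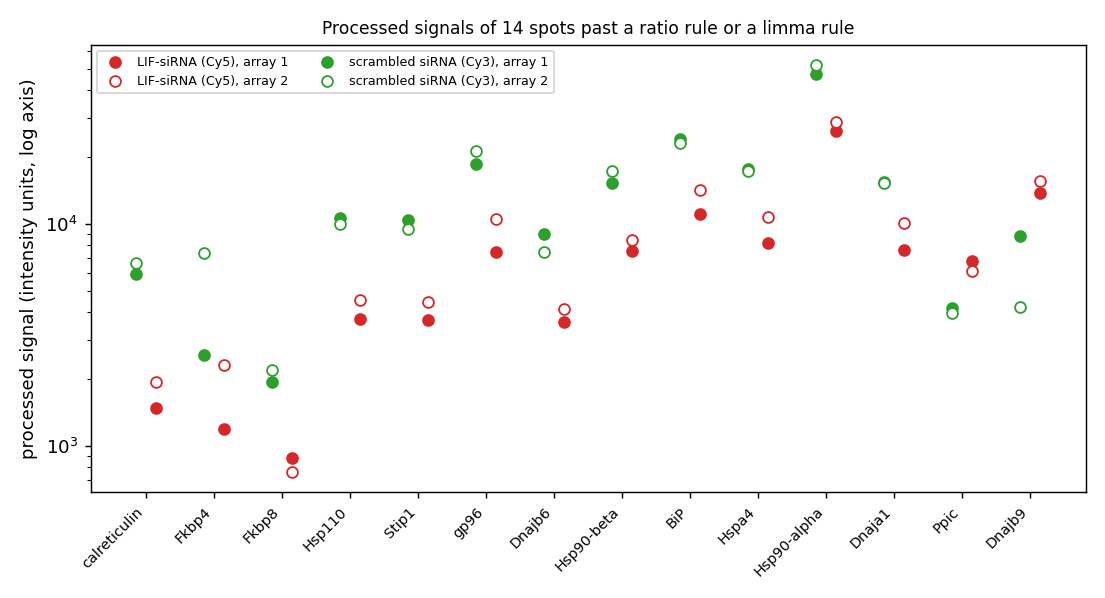
Processed signal (log axis) after scrambled siRNA (Cy3, green) and LIF-siRNA (Cy5, red) on array 1 (filled) and array 2 (open) for the 14 spots past the signal threshold that met the criteria of the study or had an adjusted p under 0.05 in limma on that set. For 12 spots both red points lie below both green ones, as for 31.2% of all probes tested. Ppic and Dnajb9 have both red points above both green ones, as for 31.4% of all probes tested. The spots were chosen by these same signals, so their separation was largely built in. The green points of Dnajb9 lie apart at 8791 and 4207.

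The cytosolic group of Hsp90, Hsp70, Hsp110 and their cofactors had 12 spots, 7 below 0 and 5 above 0 on both arrays, with a median log2 ratio of -0.52. Both forms of Hsp90, the chaperone of kinases and steroid receptors, were on the lower side. For Hsp90-beta the signal was 15198 and 17253 after scrambled siRNA and 7524 and 8411 after LIF-siRNA, with log2 ratios of -1.01 and -1.04. For Hsp90-alpha it was 47228 and 51935 against 26150 and 28699, with log2 ratios of -0.85 and -0.86. The arrays differed by little for either gene, and neither had overlapping channels. Stip1, the cochaperone that joins Hsp70 to Hsp90, had signals of 10391 and 9479 after scrambled siRNA and of 3690 and 4433 after LIF-siRNA. Its log2 ratio was -1.49 and -1.10, a mean of -1.29 ± 0.28. Benjamini-Hochberg adjusted p from limma over all probes was 0.0734 for Hsp90-beta, 0.0895 for Hsp90-alpha and 0.0636 for Stip1, and 0.0243, 0.0316 and 0.0221 among probes past the signal threshold.

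The spots of the Hsp110 family, which release nucleotide from Hsp70, were split. The clone named Hsp110 had a signal of 10601 and 9938 after scrambled siRNA and of 3730 and 4515 after LIF-siRNA, a log2 ratio of -1.51 and -1.14 (mean -1.32 ± 0.26). The clone named Hspa4 had log2 ratios of -1.11 and -0.69. Both clones carry the same UniGene cluster in the files, so they may report 1 gene and are no independent evidence of each other. Hsp105 (Hsph1) had -0.49 and -0.92. The 2 clones of osmotic stress protein 94 (Hspa4l), a family member known from the kidney and testis, lay on the other side, with 0.34 and 0.29 for clone A and 1.03 and 0.16 for clone B, at signals from 128 to 261.

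The stress-inducible Hsp70 genes had 1 spot on either side of 0. The Hsp70-1 spot had a signal of 1525 and 2498 after scrambled siRNA and of 1377 and 1717 after LIF-siRNA, a log2 ratio of -0.15 and -0.54, and the channels overlapped. The Hsp70-3 spot had 1.27 and 0.25, and its channels overlapped too. These genes are nearly identical in sequence, so cloned cDNA can bind both transcripts and each value is uncertain. The testis form Hsc70t, whose clone shares a UniGene cluster with Hsp70-1 in the files, had 0.68 and 0.79 at signals from 74.0 to 143. Hspa2, known from male germ cells, had the highest ratio of the group. Its signal was 535 and 355 after scrambled siRNA and 868 and 947 after LIF-siRNA, a log2 ratio of 0.70 and 1.41 (mean 1.06 ± 0.51), past a ratio of 2 but below the signal threshold.

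**Figure D4:**
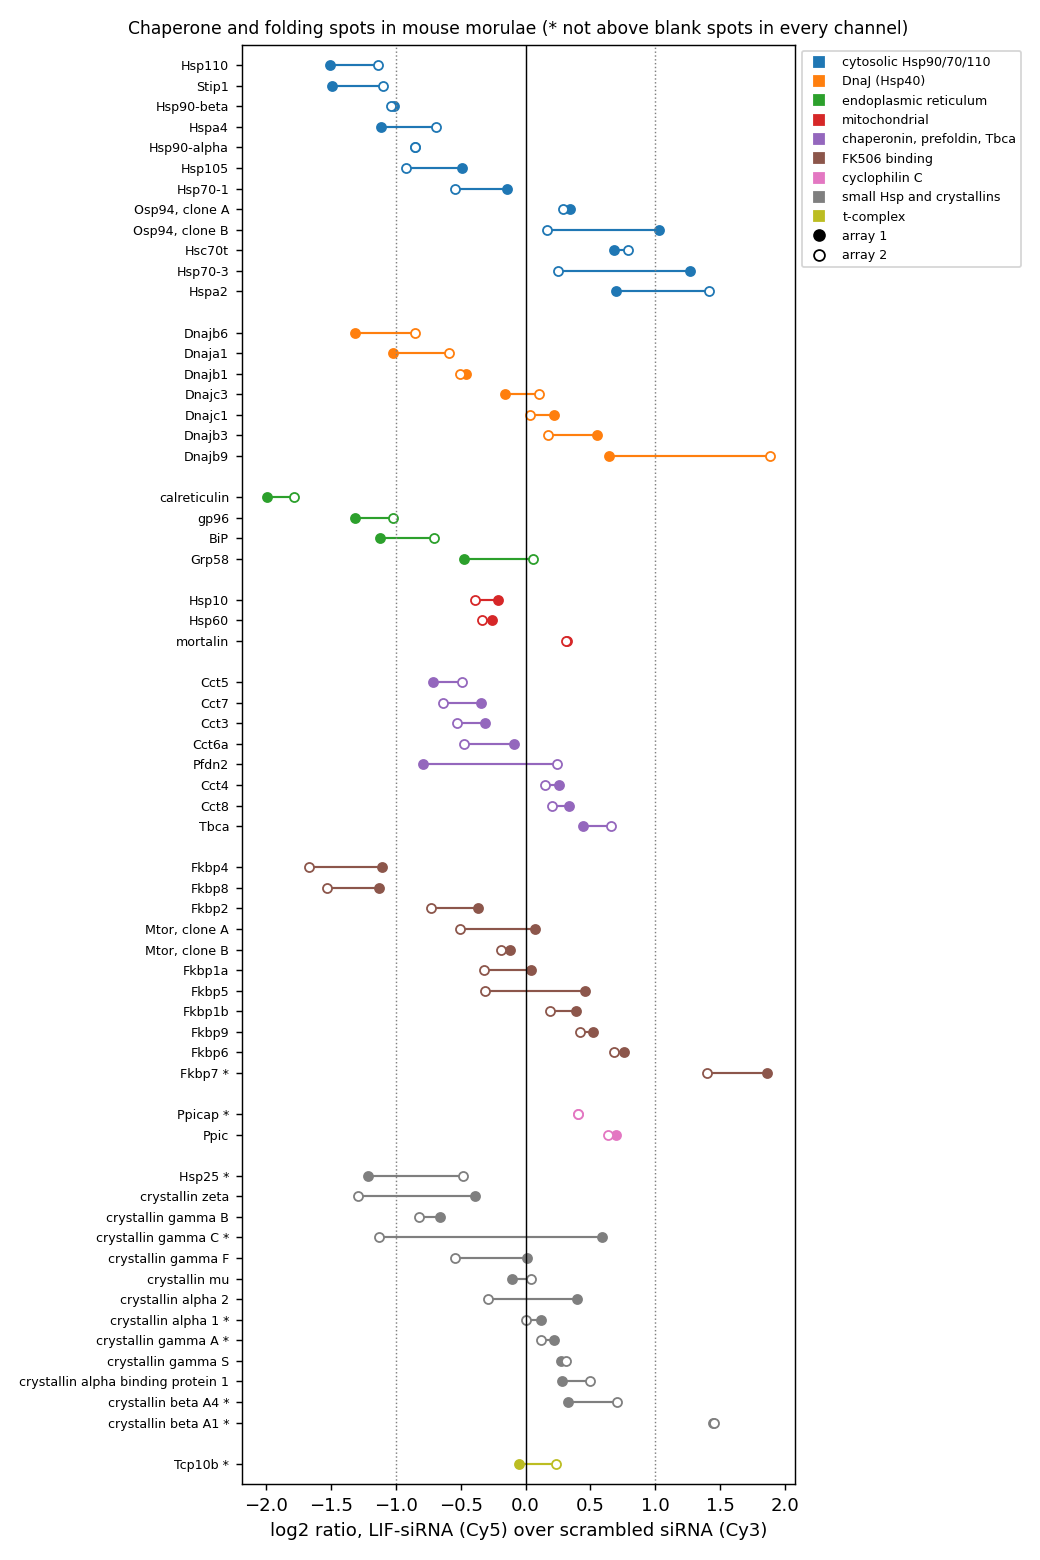
Log2 ratio of LIF-siRNA (Cy5) over scrambled siRNA (Cy3) of all 61 spots on array 1 (filled) and array 2 (open), joined by a line and grouped by role. Dotted lines mark a ratio of 2 and of 0.5, and an asterisk marks the 9 spots not above the blank spots in every channel. Calreticulin has the lowest mean, with -2.00 and -1.79, and the widest line is that of crystallin gamma C, from 0.59 to -1.13.

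The 7 DnaJ (Hsp40) spots ran from the lower to the higher side, with a median log2 ratio of -0.03. Dnajb6, a DnaJ protein that keeps polyglutamine proteins and keratin from aggregating and is needed in the placenta, had a signal of 9028 and 7444 after scrambled siRNA and of 3621 and 4116 after LIF-siRNA. Its log2 ratio was -1.32 and -0.85, a mean of -1.09 ± 0.33. Dnaja1, a cytosolic partner of Hsp70, had -1.02 and -0.59, and Dnajb1, the main stress-inducible one, -0.46 and -0.50. In these 3 genes no channels overlapped and Cy5 was the lower, as in 31.2% of all probes. Dnajc1, Dnajc3 and Dnajb3 had mean log2 ratios of 0.13, -0.03 and 0.36 with overlapping channels.

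Dnajb9 (ERdj4), a cochaperone of BiP in the endoplasmic reticulum, was the only member to meet the criteria for up-regulation and differed in size between the arrays. Its signal was 8791 and 4207 after scrambled siRNA and 13739 and 15561 after LIF-siRNA, which gave 0.64 on array 1 and 1.89 on the other (log2). The mean of 1.27 ± 0.88 rested on array 2, as array 1 alone was below a ratio of 2. The Benjamini-Hochberg adjusted p from limma was 0.103 over all probes and 0.0564 among probes past the signal threshold. Dnajb9 and Hspa2 lay among many probes whose ratio was higher on array 2 than on array 1. Between 0.3 and 0.9 on array 1 and between 1.3 and 2.3 on array 2 there were 225 probes, while the 3 mirror images of that region held 83, 54 and 40. The limits of the region were set after its values were seen, and its part in the ratio of Dnajb9 was not tested.

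**Figure D5:**
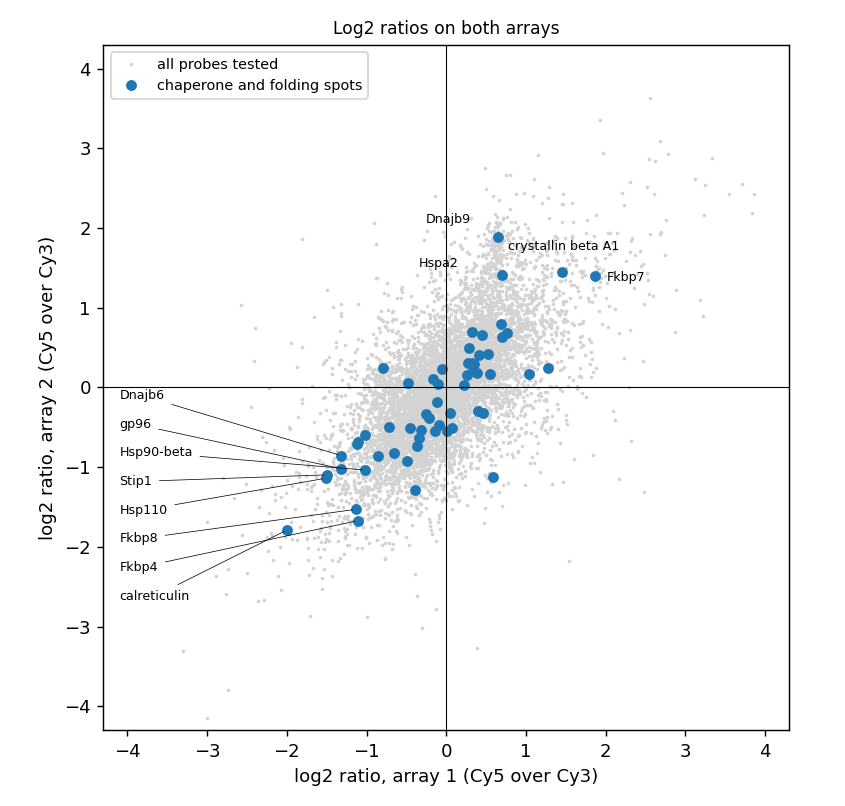
Log2 ratio (Cy5 over Cy3) on array 1 against array 2 for all 8079 probes tested (grey) and the 58 chaperone and folding spots tested (blue); the 12 with a mean past 1 in size are named. The 8 named spots at the lower left are below -0.8 on both arrays, and Dnajb9 and Hspa2 lie in the dense band at the upper middle.

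The 11 FK506 binding spots were mixed, with a median log2 ratio of -0.14. Most of these proteins are prolyl isomerases, which turn the bond before a proline. Fkbp4 (FKBP52), an Hsp90 cochaperone needed by steroid receptors, had a signal of 2550 and 7367 after scrambled siRNA and of 1182 and 2313 after LIF-siRNA. Its log2 ratio was -1.11 and -1.67, a mean of -1.39 ± 0.40. Fkbp8 (FKBP38), a membrane-bound form that holds Bcl-2 at mitochondria, had 1926 and 2197 against 880 and 761, a log2 ratio of -1.13 and -1.53 (mean -1.33 ± 0.28). Neither had overlapping channels, and the Cy3 signal of Fkbp4 differed more between the arrays than the channels did on array 1. Adjusted p (Benjamini-Hochberg) from limma was 0.064 and 0.0632 over all probes, and 0.0223 and 0.022 among probes past the signal threshold.

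Fkbp5 (FKBP51), another Hsp90 cochaperone of the family, had log2 ratios of 0.46 and -0.32. Fkbp1a, the small form that binds FK506 and rapamycin, had 0.04 and -0.32, and Fkbp2, in the endoplasmic reticulum, -0.37 and -0.73. The 2 clones of the mTOR kinase had mean log2 ratios of -0.21 and -0.15 with overlapping channels. Fkbp6, Fkbp9 and Fkbp1b were above 0 on both arrays, with means of 0.72, 0.47 and 0.28. Fkbp7, another form of the endoplasmic reticulum, had 1.86 and 1.40, but its Cy3 signal was not well above background on either array, so the size of its ratio was not measured. Its Cy3 signal was 20.9 and 16.6, below the 95th percentile of blank spots in that channel (53.7 and 67.9), while its Cy5 signal of 75.7 and 43.9 was above that in Cy5 (27.9 and 22.5). Its mean log2 ratio was 0.40 under normexp background correction and loess.

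Of the 8 chaperonin, prefoldin and tubulin cofactor spots, 0 met the criteria of the study, beside 5.42% of all probes lower and 5.33% higher. The limma fit with an intensity trend called 3 of them lower (Cct3, Cct5 and Cct7) and 1 higher (Tbca), beside 6.81% and 7.22% of all probes. Of the 6 subunits of the chaperonin ring (CCT), Cct5, Cct7, Cct3 and Cct6a were below 0 on both arrays, with mean log2 ratios of -0.60, -0.49, -0.42 and -0.28. Cct4 and Cct8 were above 0 on both arrays, with 0.21 and 0.27. The channels overlapped for none of the 6, where 31.2% of all probes were lower and 31.4% higher without overlap. Tbca, which receives folded beta-tubulin, had 0.44 and 0.66 (mean 0.55 ± 0.15). Prefoldin 2, part of the complex that brings actin and tubulin to the ring, had -0.79 and 0.24.

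Of the mitochondrial chaperones, Hsp60 and Hsp10 were below 0 and mortalin above 0 on both arrays, and the channels overlapped for none of the 3, as was so for the 31.2% of all probes that were lower and the 31.4% that were higher. Hsp60 and Hsp10, the partners of the mitochondrial chaperonin, had log2 ratios of -0.26 and -0.33 and of -0.21 and -0.39. Mortalin (Hspa9), the Hsp70 that draws proteins into the mitochondrion, had 0.32 and 0.31. The adjusted p (Benjamini-Hochberg) from limma was 0.383, 0.38 and 0.359.

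The genes of Hsp60 and Hsp10 lie head to head, and their promoter windows overlap. That of Hspe1 (Hsp10), at chr1:55087898-55088147 on the plus strand of GRCm38.p6, is shown with that of Dnajb6, at chr5:29735648-29735897 on the plus strand, because these windows hold the heat shock element before the start. The letters searched were GAANNTTCNNGAA and its reverse complement TTCNNGAANNTTC, in capitals here. In Hspe1 a match of each form overlaps the other.
Hspe1: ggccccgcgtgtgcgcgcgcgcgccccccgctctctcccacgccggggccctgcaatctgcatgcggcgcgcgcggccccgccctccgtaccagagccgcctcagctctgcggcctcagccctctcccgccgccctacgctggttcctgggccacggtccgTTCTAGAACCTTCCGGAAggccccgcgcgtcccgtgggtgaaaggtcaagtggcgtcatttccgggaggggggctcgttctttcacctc
Dnajb6: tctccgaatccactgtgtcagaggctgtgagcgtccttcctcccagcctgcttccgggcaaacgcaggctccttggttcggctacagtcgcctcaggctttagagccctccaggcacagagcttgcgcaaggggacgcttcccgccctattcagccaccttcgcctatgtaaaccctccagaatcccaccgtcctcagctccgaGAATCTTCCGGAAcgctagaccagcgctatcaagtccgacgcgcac
The element was in the windows of 4 of the 51 member genes (Dnajb6, Hspd1, Hspe1 and Hsph1, the last after the start) and in those of 0.662% of all genes (0.603% of windows). Of the 8 down-regulated members, 7 had a RefSeq window. The window of 1 of them held the heat shock element and the windows of 2 the endoplasmic reticulum stress element. No match says only that these letters are not in this window.

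Cyclophilin C (Ppic), a prolyl isomerase of the secretory pathway, had a signal of 4183 and 3949 after scrambled siRNA and of 6798 and 6121 after LIF-siRNA. Its log2 ratio was 0.70 and 0.63, a mean of 0.67 ± 0.05, and the channels did not overlap. Its adjusted p (Benjamini-Hochberg) from limma was 0.117 over all probes and 0.0491 among probes past the signal threshold, where it was the only member called higher. The cyclophilin C-associated protein had 0.41 and 0.40, and its Cy3 signal of 67.7 on array 2 was just under the 95th percentile of blank spots there, 67.9, while its other 3 signals were above theirs.

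Among the small heat shock proteins and crystallins, the alpha crystallins and Hsp25 are chaperones that hold unfolded protein without ATP, and the beta and gamma crystallins are structural proteins of the lens. With crystallin zeta, crystallin mu and Hivep1, which the rule took by name, they had a median log2 ratio of 0.05, and 3 of the 13 spots were past the signal threshold. Crystallin alpha 2 (alpha B) had a signal of 1482 and 1643 after scrambled siRNA and of 1949 and 1343 after LIF-siRNA, a log2 ratio of 0.40 and -0.29. Crystallin gamma S had 0.28 and 0.31, and Hivep1 0.28 and 0.50. Hsp25 had signals of 30.4 and 48.2 after scrambled siRNA and of 13.1 and 34.5 after LIF-siRNA, and crystallin alpha 1 was not well above background in any channel. The log2 ratio of crystallin beta A1 was 1.45 on both arrays, but its Cy3 signals were 39.6 and 47.1, below the 95th percentile of blank spots (53.7 and 67.9), and its mean log2 ratio was 0.61 under normexp and loess. Crystallin zeta had -0.39 and -1.29, and the other crystallins, all under the signal threshold, had means from -0.74 to 0.51. Tcp10b had -0.05 and 0.23, and its Cy3 signals of 47.1 and 40.5 were below the same percentile.

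Other genes of folding and of the stress response of the endoplasmic reticulum, listed with earlier results of these data known, were mixed in sign. Of 25 entries 15 were found, with 37 spots, of which 35 were tested. In limma's fit over all probes 0 of the 35 were called, as were 0% of all probes, and the median log2 ratio was -0.16. Of the 37 spots, 9 were above 0 on both arrays and 15 below. Of the 22 spots past the signal threshold, 1 met the criteria of the study, a thioredoxin peroxidase pseudogene with log2 ratios of -1.66 and -1.88, beside 5.42% of all probes lower and 5.33% higher. With a limma variance that follows the intensity, 2 of the 35 were higher and 2 lower, beside 7.22% and 6.81% of all probes. The higher ones were the signal recognition particle 9 kDa subunit, with log2 ratios of 0.43 and 0.90, and the SEC61 gamma subunit, with 0.56 and 0.62, which serve the entry of proteins into the endoplasmic reticulum. The lower ones were the pseudogene and the valosin containing protein. Of the cofactors of Hsp70 and Hsp90, Bag1 had 0.03 and 0.02, Bag3 had -0.06 and -0.36, and GrpE-like 2, of the mitochondrion, had -0.10 and -0.40. The p23 spot had 0.09 and -0.11, and the 2 clones of Cdc37 had 0.06 and -0.18 and 0.05 and -0.63, so that Bag3 and GrpE-like 2 were below 0 on both arrays and p23 and Cdc37 differed in sign between the arrays. Activating transcription factor 4, which drives genes of the stress response, had 0.38 and 0.61, and the valosin containing protein, which draws misfolded proteins out of the endoplasmic reticulum, had -0.50 and -0.82.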

How the data were processed

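Two-channel scans of 2 cDNA arrays were used. The scanner files came from Agilent Feature Extraction (A.7.5.1 per the file headers; the methods name another version). The deposited log10 ratio of Cy5 to Cy3 was taken after background subtraction and rank-consistent lowess. The deposited intensity columns hold the brightness of each spot and its background, the signal less background, and the processed signal after dye normalization, in which surrogates stand for low values. The deposited log2 table of the series was set against the scanner values and holds the average brightness of an array. It could not replace the ratios. The p-values and errors of the authors' software were not used.

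The log10 ratio was converted to log2. Spots marked as outliers (23, no member) and controls were left out. Probes well above background on each array in 1 channel or both entered a two-sided limma 3.58.1 test of the mean (R 4.3.3), with Benjamini-Hochberg adjustment over all probes and a threshold of 0.05. The criteria of the study were a ratio of 2 or 0.5 and a signal above 1000 in Cy5 or Cy3. Its methods do not state how the arrays were combined. Here the log2 ratio and the signal were averaged over the arrays, so calls can differ from those of the study. Tables and figures were made in Python 3.11.15 with pandas 2.3.3, numpy 2.4.6 and matplotlib 3.10.9. The limma step was also run on simulated data with known changes. The precision of each ratio is limited by the number of arrays.

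The files hold gene names without symbols. Symbols were assigned by hand from the names and looked up in the RefSeq gene table, and promoter windows were taken by symbol from RefSeq (GRCm38.p6). Protein and clone sequences were not used here. The members and lists were chosen with earlier results of these data known. Named with values were members with a mean log2 ratio past 1 in size and the same sign on both arrays, the highest and lowest of each role, and the best known members. Others were named to account for every group, after their values were seen.

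The alternatives were normexp (offset 50) with loess, median centring, other filters on dim probes, outliers kept, clones of 1 name averaged, an intensity trend, the methods' t-test, other rules for the signal, and each replicate left out. A slide block was not possible, since each array holds both groups.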

Additional observations from a re-analysis of the deposited data

How the results depend on the processing

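The members that met the criteria for down-regulation numbered 8, and from 7 to 11 under the alternatives, with 11 by median centring. The share of all probes meeting the criteria was computed only for the main setting and where both arrays had to pass. It was 5.42% and 3.77% for down-regulation. Counts under the other alternatives, 11 among them, therefore cannot be set against the background. Members that met the criteria for up-regulation numbered 1, and 0 where both arrays had to pass. They numbered 4 when the signal threshold was dropped or exchanged for the background flag. With a replicate left out they ranged from 0 to 1: without replicate 2, Dnajb9 was not called. Members called by limma numbered 0. There were 1 with normexp correction and loess, 18 by median centring, 2 with both channels well above background, 13 past the signal threshold and 22 with an intensity trend. The cause was not tested. The count was 0 with outliers kept, with no filter, by the methods' t-test and with clones averaged. The median log2 ratio of the members was from -0.21 to -0.12 under the alternatives with both arrays, and from -0.30 to -0.07 with a replicate left out. For the 28 members named by rule, 258 alternative values were computed. Of the 200 with a limma test on either side, 154 kept their direction and side of the threshold, 45 passed the threshold and 1 changed sign. Of the 58 without a test, most of them single arrays, 54 kept their sign, 3 changed it and 1 was at 0. The members that changed sign were crystallin alpha 2 (-0.081 with median centring, and from -0.29 to 0.40 with a replicate left out), Grp58 (from -0.48 to 0.058) and Tcp10b (from -0.054 to 0.23). Adjusted p of calreticulin from limma ranged from 1.62e-07 to 0.157 over the alternatives, and that of Dnajb9 from 0.00803 to 0.184. With 2 arrays, leaving 1 out is no test of stability. The deposited log2 table and a slide block could give no value, for the reasons given with the processing. No paired analysis was possible beyond limma's own test, because that test already runs on the difference within each array. The blank spots marked well above background, 4.22% to 4.67% in Cy5 and 8.89% to 11.3% in Cy3, limit what dim spots show.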
